A study of Homo sapiens with 6 samples.

Results

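Several human ribosomal proteins have a widely expressed parent gene and a second, more or less closely related gene elsewhere in the genome, its paralog. The genes described here are 6 such paralogs, RPL22L1, RPS27L, RPL39L, RPL7L1, RPL26L1 and RPL36AL, and 4 of their parents, RPL22, RPS27, RPL39 and RPL7. They were chosen by symbol from the genes on reference chromosomes, with the values of this comparison already known, so their changes are given as a description without p-values. All 10 passed the filter on low counts, among 17171 genes tested and 63152 counted. The remaining parents, RPL26 and RPL36A, are not on the list and are given beside their paralogs.

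The cells were A549, an established line from a human lung adenocarcinoma. They were reverse transfected at 10 nM and harvested after 72 hours. Group siRPS19 received a siGENOME SMARTpool against RPS19, a protein of the small ribosomal subunit, and group siOTP an ON-TARGETplus non-targeting control. Each group has 3 libraries, called biological replicates in the labels. Both groups had the same medium, transfection reagent and time. The siRNAs came from different product lines, so reagent and target cannot be told apart. Both groups are 1 cell line, and no untransfected cells are among the samples.

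Some paralog proteins can take their parent's place in the ribosome, and some have duties of their own. RPL22 is an RNA-binding protein of the large subunit that is dispensable in many cells, and it is known to hold down the mRNA of RPL22L1. RPS27L is known as a stress-inducible gene, whereas its parent RPS27 is a constitutive small-subunit gene. RPL39L is known from testis, RPL36AL is a retrogene copy of the X-linked RPL36A, and RPL7L1 has been linked to assembly of the large subunit. Transcripts of most ribosomal protein genes begin with an oligopyrimidine tract, which ties their translation to growth signalling through mTOR and LARP1.

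The start sites show how far the paralogs share that feature. RefSeq windows (GRCh38.p14) were found for 10 of the 12 genes, but not for RPL7 and RPL39L. A tract was counted where a C within 5 bases of the annotated start was followed by at least 4 bases that were C or T, on the gene's own strand. It was present in 5 of 5 parents with a window (RPL22, RPS27, RPL39, RPL26 and RPL36A) and in 2 of 5 paralogs (RPL22L1 and RPL36AL). RPS27L, RPL7L1 and RPL26L1 had none. Of all 35116 windows 21.1% held a tract, and of 78 windows of listed ribosomal protein genes 74.4% did. The sequences below run from 12 bases before the start through the first 20 transcribed bases, 5′ to 3′ on the gene's strand, with the whole run of C and T in capitals. They are shown for the 4 pairs in which a paralog either keeps the tract of its parent or lacks it.
RPL22: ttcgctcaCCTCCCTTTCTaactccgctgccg
RPL22L1: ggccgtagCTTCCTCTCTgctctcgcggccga
RPS27: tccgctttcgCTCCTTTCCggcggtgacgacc
RPS27L: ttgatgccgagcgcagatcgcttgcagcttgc
RPL26: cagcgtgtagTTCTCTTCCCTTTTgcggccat
RPL26L1, first start: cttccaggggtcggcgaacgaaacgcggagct
RPL26L1, second start: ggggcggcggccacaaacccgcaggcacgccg
RPL36A: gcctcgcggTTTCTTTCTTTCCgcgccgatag
RPL36AL: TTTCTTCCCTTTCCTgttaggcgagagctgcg
In GRCh38.p14 these windows lie at chr1:6199576-6199607 for RPL22 (minus strand) and chr3:170870176-170870207 for RPL22L1 (minus). Those of RPS27 and RPS27L lie at chr1:153990750-153990781 (plus) and chr15:63157458-63157489 (minus). Those of RPL26 and RPL26L1 lie at chr17:8383174-8383205 (minus), chr5:172958717-172958748 and chr5:172958868-172958899 (both plus). Those of RPL36A and RPL36AL lie at chrX:101390999-101391030 (plus) and chr14:49620607-49620638 (minus). The tract was 11 bases long in RPL22, 10 in RPL22L1, 9 in RPS27, 14 in RPL26, 13 in RPL36A and 15 in RPL36AL, where 12 of the 15 lie before the annotated start. RPL22L1 and RPL36AL keep a tract, while the RPS27L window and both RPL26L1 windows have no such run at the start.

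The paralogs differ widely in how close they are to their parents. From GENCODE v29 coding sequences, the proteins were 99.1% identical for RPL36AL (1 of 106 residues differs) and 98.6% for RPL26L1 (2 of 145). RPS27L was 96.4% identical to RPS27 (3 of 84 residues differ) and RPL39L 92.2% to RPL39 (4 of 51). RPL22L1 was 70.3% identical to RPL22, and RPL7L1 only 42.2% to RPL7. At the nucleotide level the longest stretch shared with the parent's transcripts was 67 bases for RPL39L and 63 for RPL36AL, longer than the 50-base reads, and 20 bases or fewer in the other 4 pairs. Reads from those stretches of RPL39L and RPL36AL cannot be told apart from the parent's. How reads with several matches were treated is not given in the sources used here.

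Each library held 20814110 to 23889372 counts on genes. RPS19, the gene targeted, fell 35.3-fold, from 30731, 27124 and 30387 counts in siOTP to 1159, 830 and 1073 in siRPS19. All 6 markers of A549 epithelial cells were present. They summed to 18479 to 19354 CPM (counts scaled by TMM to library size) in siOTP and 11324 to 12440 in siRPS19. Much of the sum was the enzymes ALDH1A1 (mean 10511 CPM in siOTP, 7968 in siRPS19) and AKR1B10 (3171 and 613). CDH1 alone of the 6 was higher in siRPS19, at a mean of 50.0 CPM against 30.6 in siOTP. Haematopoietic markers summed to at most 0.103 CPM in any library, with CD3E at 0. Endothelial markers reached at most 0.304 CPM, with PECAM1 at 0. Fibroblast markers summed to 32.2 to 39.9 CPM in siOTP and 14.6 to 20.3 in siRPS19, nearly all of it COL1A1. The part of these shifts in the results was not tested. In bulk RNA of this kind, fewer cells of a type and less RNA per cell cannot be told apart.

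Of the 10 genes, RPS27L rose and 9 fell in the fit over all genes (edgeR quasi-likelihood test, adjusted p threshold 0.05), at a median log2 fold change of -0.78. The fall of RPS27 depends on the scaling, as given with that gene below. Over all genes tested the median was 0.02, with 39.5% called higher and 38.9% called lower. The groups did not overlap for any of the 10, nor for 79.7% of all genes tested. Because the list was made with this contrast known, nothing is read from these counts. The 5 falling paralogs ranged from -0.80 to -4.28, and the 6 parents from -0.22 to -0.85. RPL36AL at -0.80 lay within the range of the parents and RPL26L1 at -0.95 just below it, while RPS27L at 0.87 was alone above it. No general difference between paralogs and parents is read from these ranges.

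**Figure D1:**
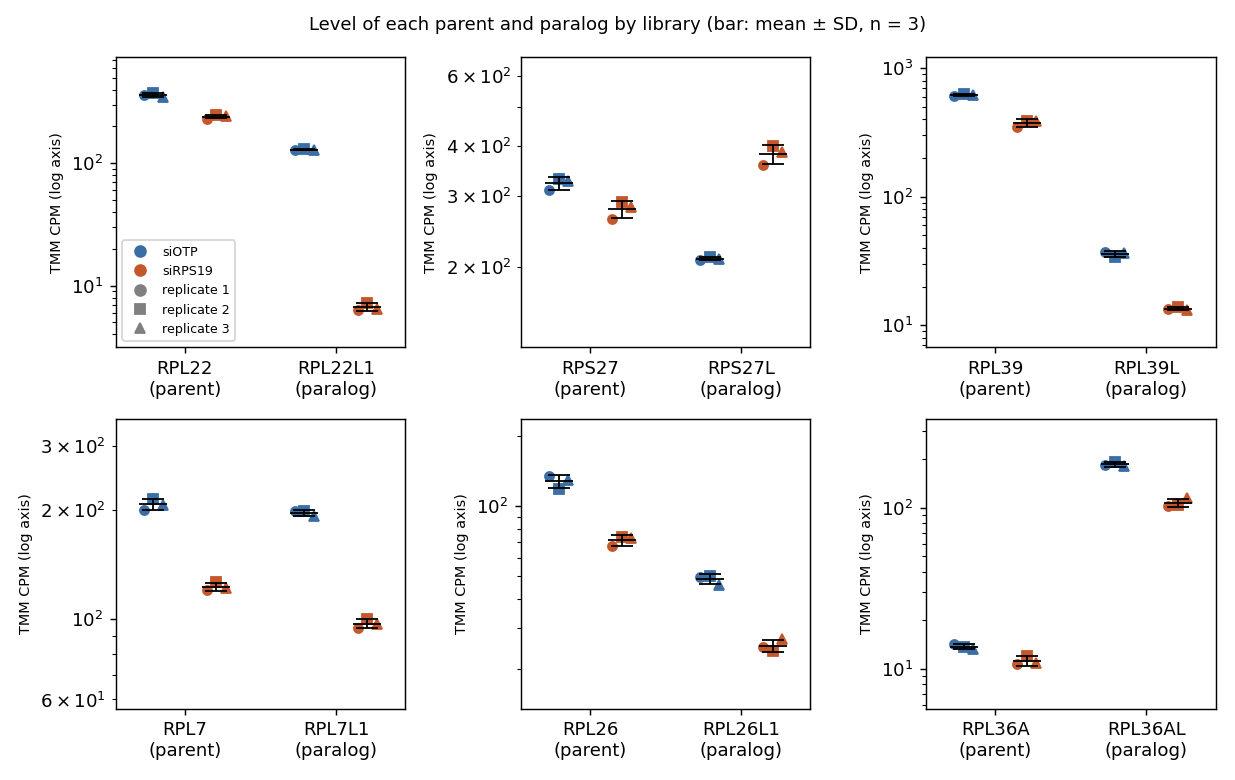
Level of each parent and paralog in each library, in TMM-scaled CPM on log axes that differ between panels. Points are libraries (shape gives the replicate number) and bars the mean ± SD of 3. RPL22L1 fell from about 129 to 6.67 CPM and RPS27L rose from 209 to 382. RPS27 lay lower in siRPS19 on this scale, but not when libraries were scaled by their totals.

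RPL22L1 showed the largest change of the 10. The gene (ENSG00000163584, chromosome 3, 170582664 to 170588272, hg19) had 2677, 2569 and 2505 counts in siOTP and 165, 167 and 155 in siRPS19. The siOTP libraries stood within a few percent of each other, and every siRPS19 library lay far below them. Its level went from 129 ± 0.864 CPM (SD, n = 3) to 6.67 ± 0.499 CPM (SD, n = 3), a log2 fold change of -4.28 ± 0.06 (SE) or 19.4-fold. Only 0.734% of all genes tested had a lower log2 fold change. No other gene of the authors' table overlaps RPL22L1.

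Its parent RPL22 (ENSG00000116251, chromosome 1, 6241329 to 6269449) fell far less. It had 7479, 7406 and 6777 counts in siOTP and 6037, 5722 and 5885 in siRPS19, and the groups did not overlap. The level was 361 ± 12.99 CPM (SD, n = 3) and 241 ± 8.19 CPM (SD, n = 3), a log2 fold change of -0.58 ± 0.04 (SE), which was -0.295 with library totals. Within each library, the log2 count ratio of RPL22L1 to RPL22 was -1.48, -1.53 and -1.44 in siOTP and -5.19, -5.09 and -5.24 in siRPS19. The ratio thus dropped by 3.69 ± 0.05 (SE) on the log2 scale, or 12.9-fold, with -3.71, -3.57 and -3.81 within replicate numbers 1, 2 and 3. A ratio within a library does not depend on how libraries are scaled. RNF207 overlaps RPL22 on the opposite strand, by 3915 bases, and had 399 to 551 counts in siOTP and 714 to 1198 in siRPS19. It moved opposite to RPL22, and its part in the RPL22 values was not tested.

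RPS27L was the gene of the 10 that rose. It lies on chromosome 15 (ENSG00000185088, 63418071 to 63450220) and had 4344, 4166 and 4054 counts in siOTP and 9334, 9257 and 9330 in siRPS19. All siRPS19 libraries were above all siOTP libraries. The level went from 209 ± 1.38 CPM (SD, n = 3) to 382 ± 21.5 CPM (SD, n = 3), a log2 fold change of 0.87 ± 0.04 (SE) or 1.82-fold. LACTB overlaps RPS27L on the opposite strand by 16190 bases. It had 1905 to 2152 counts in siOTP and 1887 to 2250 in siRPS19, so its raw counts overlapped between the groups while those of RPS27L did not. Raw counts do not show whether LACTB changed after TMM scaling, and its part in the RPS27L values was not tested.

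RPS27 (ENSG00000177954, chromosome 1, 153963235 to 153964626), whose protein sits on the small subunit, was the member that moved least. Its raw counts were 6469, 6549 and 6336 in siOTP and 6834, 6690 and 6803 in siRPS19, higher in siRPS19, yet after TMM scaling the order turned. The scaled values were 310, 332 and 327 CPM in siOTP and 263, 290 and 282 in siRPS19. The log2 fold change was -0.22 ± 0.04 (SE). With libraries scaled by their totals it was 0.07, and with upper-quartile factors -0.04, neither past the threshold. Those scalings moved the median of all genes by 0.29 and 0.17. Relative to the median of all genes RPS27 stood at -0.24 under TMM, library totals and upper-quartile factors alike. A scaling shifts all genes by nearly the same amount, so this agreement follows by construction and does not show a fall. With library totals 65.8% of all called genes were higher, against 50.4% with TMM.

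The pair RPS27L and RPS27 exchanged places in counts. The log2 ratio was -0.57, -0.65 and -0.64 in siOTP and 0.45, 0.47 and 0.46 in siRPS19. It rose by 1.08 ± 0.03 (SE), or 2.12-fold, with 1.02, 1.12 and 1.10 within replicate numbers. RPS27 had more counts than RPS27L in every siOTP library and fewer in every siRPS19 library. Counts are not corrected for length, and per length RPS27 remained the higher of the pair, as the shares below show.

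**Figure D2:**
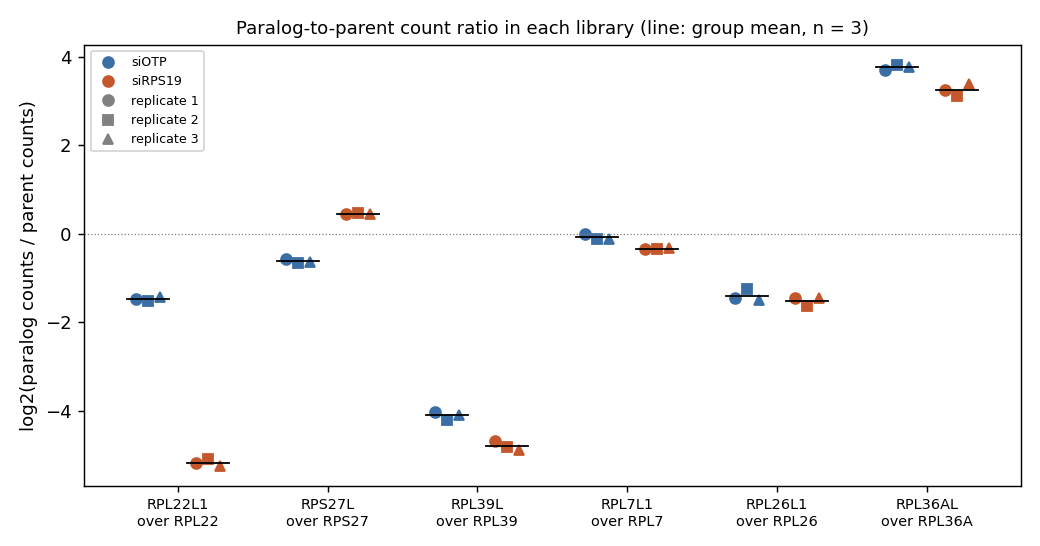
Log2 ratio of paralog to parent counts in each library, not corrected for gene length. Points are libraries (shape gives the replicate number) and lines group means of 3. The ratio of RPL22L1 to RPL22 fell from -1.48 to -5.18 and that of RPS27L to RPS27 rose from -0.62 to 0.46, while the groups overlap for RPL26L1 over RPL26.

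RPL39L fell more than its parent. RPL39 encodes a small protein lining the exit tunnel of the large subunit, and RPL39L its autosomal copy. RPL39L (ENSG00000163923, chromosome 3, 186838736 to 186898696) had 781, 669 and 704 counts in siOTP and 350, 319 and 317 in siRPS19, a fall from 35.9 ± 1.82 CPM (SD, n = 3) to 13.5 ± 0.358 CPM (SD, n = 3). The log2 fold change was -1.41 ± 0.07 (SE), or 2.66-fold, and the groups lay well apart. RPL39 (ENSG00000198918, chromosome X, 118920467 to 118925606) had 12710, 12345 and 11994 counts in siOTP and 9005, 8967 and 9373 in siRPS19. Its log2 fold change was -0.72 ± 0.04 (SE), again without overlap, and -0.44 with library totals. The log2 ratio of the pair was -4.02, -4.20 and -4.09 in siOTP and -4.68, -4.81 and -4.88 in siRPS19. It fell by 0.69 ± 0.08 (SE), by -0.66, -0.61 and -0.79 within replicate numbers. This pair shares a stretch longer than a read, so some RPL39L counts could come from RPL39, by far the more deeply counted gene.

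RPL7L1 fell somewhat more than RPL7. RPL7L1 (ENSG00000146223, chromosome 6, 42847356 to 42857663) had 4150, 3937 and 3736 counts in siOTP and 2458, 2310 and 2342 in siRPS19. It fell 2.03-fold, from 197 ± 3.80 CPM (SD, n = 3) to 97.2 ± 2.82 CPM (SD, n = 3), a log2 fold change of -1.02 ± 0.04 (SE). RPL7 (ENSG00000147604, chromosome 8, 74202506 to 74208024), a large-subunit protein, had 4186, 4241 and 4021 counts in siOTP and 3137, 2921 and 2941 in siRPS19. Its log2 fold change was -0.76 ± 0.04 (SE), and -0.47 with library totals. For both genes every siRPS19 library was below every siOTP library. The log2 ratio moved from -0.01, -0.11 and -0.11 in siOTP to -0.35, -0.34 and -0.33 in siRPS19, a change of -0.26 ± 0.03 (SE) in which the groups did not overlap. RDH10 overlaps RPL7 on the opposite strand by 1178 bases and had 474 to 542 counts in siOTP and 1734 to 1876 in siRPS19, moving opposite to RPL7. The labels do not say that the libraries kept strand, and the part of RDH10 reads in the RPL7 values was not tested.

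RPL26L1 followed its parent. RPL26, a large-subunit protein, is not on the list. RPL26L1 (ENSG00000037241, chromosome 5, 172385732 to 172396774) had 1034, 992 and 889 counts in siOTP and 642, 548 and 646 in siRPS19, which is 48.6 ± 2.38 CPM (SD, n = 3) against 25.1 ± 1.52 CPM (SD, n = 3). It fell 1.94-fold, with a log2 fold change of -0.95 ± 0.06 (SE). RPL26 (ENSG00000161970, chromosome 17, 8280838 to 8286531) had 2818, 2349 and 2523 counts in siOTP and 1745, 1702 and 1763 in siRPS19, and its log2 fold change was -0.85 ± 0.05 (SE), or -0.56 with library totals. Both genes were lower in every siRPS19 library. Their log2 ratio was -1.45, -1.24 and -1.50 in siOTP and -1.44, -1.63 and -1.45 in siRPS19, so the groups overlapped. The change was -0.11 ± 0.10 (SE), with 0.00, -0.39 and 0.06 within replicate numbers and -0.16 to -0.03 when 1 library was left out. Replicate number 2 carried this difference, and it is 0.00 and 0.06 in the others. Rows named as RPL26 pseudogenes held 4.22% of the counts on RPL26 and its pseudogenes in siOTP and 3.90% in siRPS19. RP11-849F2.7 overlaps RPL26 by 5668 bases on the same strand, with 1 to 4 counts in siOTP and 7 to 11 in siRPS19. RP11-849F2.5 overlaps it by 3809 bases on the opposite strand, and CTC-308K20.1 overlaps RPL26L1 by 664 bases on the opposite strand. How shared reads were assigned is not given, and their part in the level, ratio and share of this pair was not tested.

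In the RPL36A pair the paralog, not the parent, held most counts. RPL36AL (ENSG00000165502, chromosome 14, 50085237 to 50087403) had 3839, 3815 and 3505 counts in siOTP and 2659, 2412 and 2771 in siRPS19. It fell from 186 ± 6.46 CPM (SD, n = 3) to 107 ± 6.58 CPM (SD, n = 3), a log2 fold change of -0.80 ± 0.05 (SE) that was -0.51 with library totals. RPL36A (ENSG00000241343, chromosome X, 100645812 to 100651105) had 296, 269 and 257 counts in siOTP and 279, 279 and 263 in siRPS19. After TMM scaling RPL36A was at 13.7 ± 0.476 CPM (SD, n = 3) and 11.2 ± 0.749 CPM (SD, n = 3), which is a log2 fold change of -0.29 ± 0.08 (SE). That fall was not past the threshold with library totals (-0.00), with upper-quartile factors (-0.11), or without replicate 1 of both groups (-0.21). The log2 ratio of the pair was 3.69, 3.82 and 3.77 in siOTP and 3.25, 3.11 and 3.39 in siRPS19, a change of -0.51 ± 0.09 (SE) without overlap. Rows named as RPL36A pseudogenes held 11.97% and 11.75% of the counts on RPL36A and its pseudogenes. A readthrough gene that joins RPL36A to HNRNPH2 overlaps RPL36A by 5107 bases on the same strand and had 0 counts in every library. So it does not show how reads common to both were assigned. Whether RPL36A lost reads in this way was not tested, and its level and its part of the pair rest on the counts assigned to it. Reads of the 63-base stretch shared with RPL36AL could be placed on either gene.

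**Figure D3:**
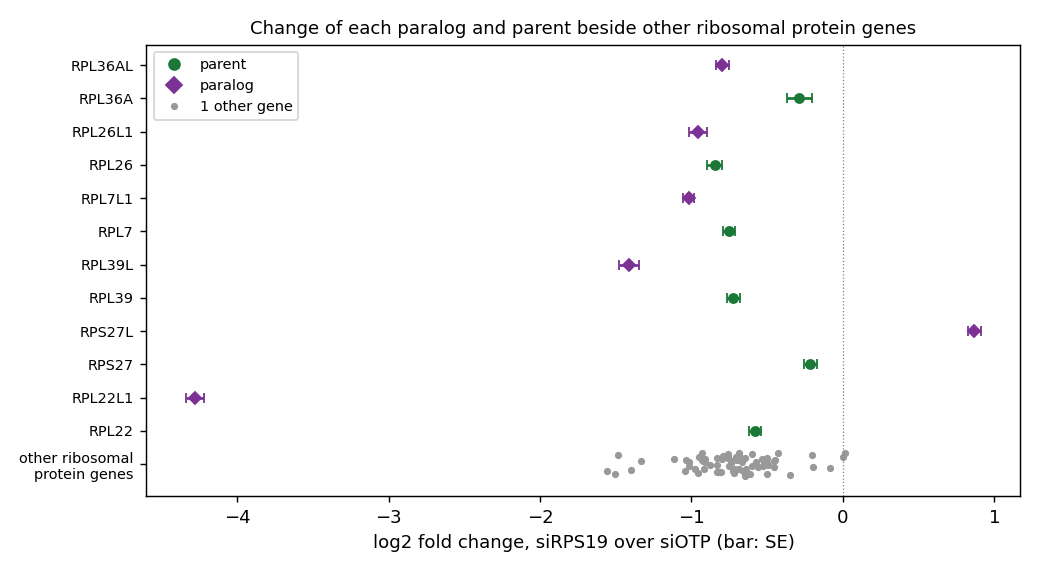
Log2 fold change of siRPS19 over siOTP for the 6 paralogs and 6 parents, with SE bars, above a row holding the other ribosomal protein genes (each grey dot is 1 gene). RPL22L1 at -4.28 lies below all of them and RPS27L at 0.87 above all. RPS27 at -0.22 turned to 0.07 with library totals, and RPL36A at -0.29 lost its call.

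The other ribosomal protein genes give the setting for these values. Of 32 listed small-subunit genes without RPS19, 31 fell and none rose, at a median of -0.69. Of 47 listed large-subunit genes 46 fell and none rose, at a median of -0.74. RPS20 did not pass the threshold, at 0.01. With library totals the lists had 25 and 45 genes lower and 2 and 1 higher, at medians of -0.40 and -0.45, and with upper-quartile factors 26 and 45 lower and 1 and 1 higher. These lists include the parents. RPL22L1 was below all 79 genes and RPS27L above all 79. RPL39L was below 76 of 79, RPL7L1 below 71, RPL26L1 below 67 and RPL36AL below 51. Among the parents, RPS27 was exceeded by 5 and RPL36A by 6 of the 78 others, whereas RPL39 and RPL7 lay near the middle, with 41 and 46 above them.

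Levels of different genes were compared as CPM per kilobase of the transcript length in the authors' table. In siOTP the order was RPS27 (341 CPM per kb), RPL39 (289), RPL36AL (249), RPL22 (73.7), RPL7 (71.5), RPL22L1 (55.6), RPS27L (51.9), RPL26 (51.8), RPL26L1 (41.7), RPL39L (33.9), RPL7L1 (25.2) and RPL36A (3.49). RPL22 and RPL7 did not differ beyond their spread, nor did RPS27L and RPL26. In siRPS19 the order of these CPM per kb levels was RPS27 (294), RPL39 (175), RPL36AL (144), RPS27L (94.7), RPL22 (49.2), RPL7 (42.4), RPL26 (28.8), RPL26L1 (21.5), RPL39L (12.7), RPL7L1 (12.4), RPL22L1 (2.87) and RPL36A (2.86). RPL39L and RPL7L1 overlapped within their spread, and so did RPL22L1 and RPL36A. RPS27L moved from ranks 7 and 8, not resolved from RPL26, to rank 4. RPL22L1 moved from rank 6 to ranks 11 and 12, not resolved from RPL36A. These ranks rest on the authors' lengths and differ with the other lengths given below.

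The share of each pair that the paralog held, per length, changed most for RPL22L1 and RPS27L. RPL22L1 made up 43.0% ± 0.778 (SD, n = 3) of the pair in siOTP and 5.50% ± 0.272 (SD, n = 3) in siRPS19. RPS27L made up 13.2% ± 0.343 (SD, n = 3) and 24.4% ± 0.123 (SD, n = 3). By the authors' lengths, though not by those given below, the RPL22 pair started near parity. It went to almost all parent, and the RPS27 pair shifted towards the paralog. RPL39L made up 10.5% ± 0.594 (SD, n = 3) and 6.79% ± 0.449 (SD, n = 3), and RPL7L1 26.1% ± 0.731 (SD, n = 3) and 22.7% ± 0.142 (SD, n = 3). RPL26L1 made up 44.6% ± 2.35 (SD, n = 3) and 42.7% ± 1.85 (SD, n = 3), a difference within the spread. RPL36AL made up 98.6% ± 0.0611 (SD, n = 3) and 98.0% ± 0.190 (SD, n = 3), so the paralog held most of that pair's assigned counts per length in both groups. The authors' lengths are long, for example 4900 bases for RPL22, 4037 for RPS27L and 7809 for RPL7L1. Median GENCODE v29 mRNA lengths for them are 1432, 808 and 4122.5 bases. With those lengths, a choice made after seeing the data, RPL22L1 held 27.6% and 2.85%, RPS27L 22.4% and 37.9%, and RPL39L 3.02% and 1.90%. RPL7L1 then held 21.7% and 18.8%, RPL26L1 26.5% and 25.1%, and RPL36AL 92.6% and 89.8%. RPL39 was then the first in the order of levels in both groups. RPS27L ranked 3 in both, but in siOTP (259 CPM per kb) it overlapped RPL22 (252) and RPL36AL (249) within their spread. RPL22L1 ranked 8 in siOTP and 12 in siRPS19. The direction of change of every share was the same under both lengths, which is no separate support. A gene has the same length in all libraries, so the order of the libraries in a share cannot change with it.

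**Figure D4:**
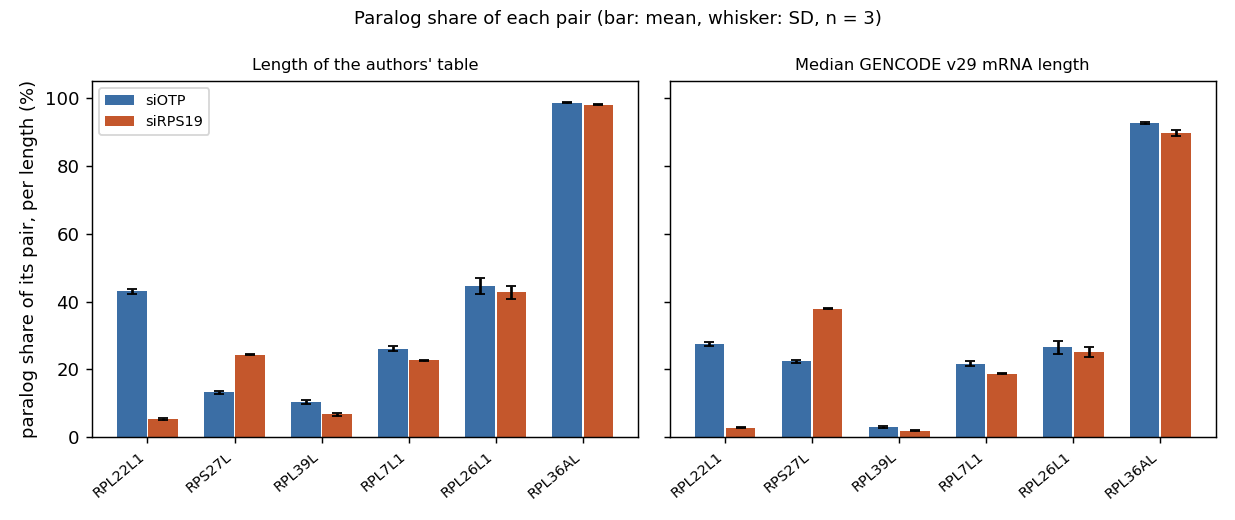
Percent of each pair's length-corrected level held by the paralog, as mean and SD of 3 libraries, with the length of the authors' table (left) and the median GENCODE v29 mRNA length (right). RPL22L1 dropped from 43.0% to 5.50% on the left and from 27.6% to 2.85% on the right, while RPS27L rose under both lengths. The choice of length moves the size of a share but not the order of the libraries in it.

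For each paralog the genes with the most similar profile were found by the Euclidean distance of mean-centred log2 CPM over the 6 libraries, among 11477 genes with a mean of at least 5 CPM. The distance includes the difference between the groups, so near genes have a like fold change by construction. Nearest to RPL22L1 were UHRF1 (distance 0.25) and ATAD2 (0.28), with log2 fold changes of -4.33 and -4.47. Nearest to RPS27L were C6orf48 (0.07), TAF3 (0.07) and ACPL2 (0.08). LGALS1 (0.05), TCOF1 (0.07) and KHSRP (0.09) were nearest to RPL39L. RQCD1, HLTF and AHCTF1P1 were nearest to RPL7L1 (each 0.04). BUD13 (0.07), GPATCH4 (0.07) and RP1-292B18.1 (0.09) stood nearest to RPL26L1, and WDR12, ZNF259 and TOP1 (each 0.06) to RPL36AL. No gene of the ribosomal protein lists was among these neighbours, and nothing is read from this. The subunit lists run from -1.56 to 0.01, so none of their genes could lie near RPL22L1 or RPS27L.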

How the data were processed

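Per the submitters' processing notes, reads were processed with TopHat2 (2.0.8b), HTSeq, DESeq and R (3.0.2) on hg19. Not given in the sources used here are the counting mode, annotation release and treatment of reads with several matches. Whole-number counts were deposited by the authors per Ensembl gene for each library. Their deposited RPKM table gives 1 value per group and was used for symbols, coordinates, lengths and an alternative. Its rule (mean count plus 1, by length and total) held for 100% of 62729 genes within 0.0051 RPKM. Entries naming no gene were left out. The siOTP libraries had 3.39% to 3.85% of entries outside genes and 8.10% to 8.24% ambiguous, the siRPS19 libraries 5.13% to 6.36% outside genes and 7.50% to 7.60% ambiguous.

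Genes passing filterByExpr (minimum count 10, minimum total 15) were scaled with TMM and compared with edgeR 4.0.16 (robust quasi-likelihood fit, Benjamini-Hochberg over 17171 genes, threshold 0.05) in R 4.3.3. The code was tested on simulated data. Ratios used a prior count of 0.5. Shares and levels divided counts by transcript length. Coding sequences were aligned globally with Biopython 1.88.

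The labels give same-numbered replicates a shared day, which pairs them. Their deviations from the group means correlated across genes at 0.0548, -0.0954 and 0.0452. Replicates differed by more than sampling noise (chi-square per degree of freedom 4.40 to 16.6). Alternatives were other scalings, filters, DESeq2 1.42.0, limma-voom (limma 3.58.1), a replicate block, libraries left out and other lengths.

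All 10 members, RPL26, RPL36A, RPS19 and the 3 nearest profiles per paralog were named whatever their result. Some genes under this rule and of the lists are not reported here. The members and lists were chosen with earlier results of these data known.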

Additional observations from a re-analysis of the deposited data

How the results depend on the processing

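Of 204 fold changes of single genes under alternatives, 199 kept their direction and call, though not always their size. RPS27 was 0.0716 with library totals, reversed and not past the threshold, and -0.04 with upper-quartile factors. RPL36A lost its call with library totals (-0.00), with upper-quartile factors (-0.11) and without replicate 1 of both groups (-0.21). Relative to the median of all genes, RPS27 stood at -0.24 and RPL36A at -0.31 under each of the 4 scalings, which follows by construction. With library totals the falls of RPL22 (-0.295), RPL39 (-0.44), RPL7 (-0.47), RPL26 (-0.56) and RPL36AL (-0.51) were smaller by over 1.5 times but kept their call. Members called lower numbered 8 with library totals and with upper-quartile factors, against 9 otherwise. All 60 changes of a paralog-to-parent ratio moved by less than the spread between replicates. For the replicate block and the libraries left out this was fixed in advance. The block leaves the mean difference as it was, and dropping 1 of 3 libraries cannot move a group mean beyond its SE. Only the parent's pseudogenes added, a prior count of 5 and the authors' RPKM could have come out otherwise. With the replicate block 6783 genes were called higher and 6701 lower, against 6778 and 6673 without it, and no call on the 6 paralogs and 6 parents changed. DESeq2 called 6208 and 6303, and library totals 9114 and 4734. All 12 shares moved with GENCODE lengths, an alternative added after seeing the data.

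The 3 libraries per group limit every error given, and RPL36A, with 257 to 296 counts, and RPL22L1 in siRPS19, with 155 to 167, are the least deeply counted. Levels are relative to the library, so a change in total RNA per cell is not measured. Levels across genes rest on the lengths used.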

Other observations

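Paralogs of RPL3 and RPL10 that are outside the list were near the limit of detection and were not tested. RPL3L, known from muscle, had 9, 21 and 14 counts in siOTP and 9, 2 and 8 in siRPS19. RPL10L, known from testis, had 0, 2 and 1 counts in siOTP and 0 in each siRPS19 library.

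The spread between replicates of RPL22L1 and RPS27L in CPM differed between the groups, which was not particular to these genes. The coefficient of variation of their CPM was 0.669% and 0.659% in siOTP and 7.48% and 5.62% in siRPS19, with 3 libraries in each, and no test was made. In siRPS19 it was 6.47% for RPL39 and 6.14% for RPL36AL, also above their siOTP values. For RPL22, RPL39L, RPL7 and RPL26 it was lower in siRPS19 than in siOTP. Sampling noise weighs more on the low RPL22L1 counts of siRPS19. The raw RPS27L counts of siRPS19 were 9334, 9257 and 9330, in libraries of 23889372, 20814110 and 21745317 counts on genes. Equal raw counts at unequal depth are unequal levels, and the source of this spread was not tested.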
